A study of Homo sapiens with 6 samples.

Results

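The 10 genes described here encode chaperones and folding enzymes of the endoplasmic reticulum (ER) or proteins of the ER stress response: HSPA5, HSP90B1, CALR, CANX, PDIA3, PDIA4, PDIA6, DNAJB9, HERPUD1 and XBP1. They were chosen by name, with earlier results of these data known. Every probe set annotated to exactly 1 of them was taken. This gave 28 of the 54613 probe sets tested and 10 of the 19775 genes tested. The arrays were hybridized with RNA of PC-9 cells, a non-small cell lung cancer line with an activating mutation of EGFR, and both groups carried a stably introduced GFP vector. Parental cells (n = 3) received the vehicle DMSO, and drug-tolerant persisters (DTPs, n = 3) were the cells that remained after 9 days with erlotinib, which blocks the kinase of EGFR, at 2 µM. The comparison addressed how the mRNA of DTPs differed from that of parental cells. By the protocol in the labels the parental cells were cultured for 3 days, whereas the design text gives vehicle and drug for 9 days each, and this was not settled here. Under the protocol, parental cells were harvested on day 3 at 100% confluency and DTPs on day 10 at 80%. Time in culture and density thus differed between the groups with the drug and cannot be told apart from it. Both groups came from a single line and vector, the study's methods call its replicates biological in general, without speaking of these arrays, and the labels do not say whether the 3 arrays of a group were separate cultures.

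Proteins that enter the ER are folded there by chaperones. HSPA5 (BiP) is the HSP70 of the ER and HSP90B1 (GRP94) its HSP90, CALR and CANX are lectins that hold glycoproteins with monoglucosylated sugar chains, and the protein disulfide isomerases PDIA3, PDIA4 and PDIA6 form and exchange disulfide bonds. When unfolded protein accumulates, the sensors IRE1 (ERN1), ATF6 and PERK (EIF2AK3) start the unfolded protein response. IRE1 splices XBP1 mRNA into the form that encodes an active transcription factor, and XBP1 and ATF6 induce chaperones, DNAJB9, a J-domain partner of HSPA5, and HERPUD1, a membrane protein of ER-associated degradation. The ER stress response element (ERSE), through which ATF6 acts with the factor NF-Y, is a CCAAT box and a CCACG half-site set 9 bases apart.

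The ERSE stands in the promoters of most of these genes, though not of all, and its copies are shown for the members that hold it. Promoter windows of 300 bases, 250 before and 50 after the annotated start, were taken from RefSeq on GRCh38.p14 and matched 9 of the 10 members, all but PDIA3. On either strand, 6 of these 9 genes held an exact ERSE, against 0.0916% of the 27305 genes with a window. The members were chosen as genes of the ER and its stress response, so this contrast is a description and not a test. HERPUD1 held the related ERSE-II, in which ATTGG and CCACG are set 1 base apart, as did 0.0696% of all genes. The matches are printed 5′ to 3′ on the strand of the gene with 5 bases on either side and the match in capitals. Read in order, HSPA5 lies at chr9:125241386-125241414 (minus strand), HSP90B1 at chr12:103930211-103930239 and chr12:103930316-103930344 (plus), CALR at chr19:12938379-12938407 (plus), CANX at chr5:179698773-179698801 (plus), PDIA6 at chr2:10812848-10812876 (minus), XBP1 at chr22:28800598-28800626 (minus) and HERPUD1 at chr16:56932020-56932040 (plus).
HSPA5 ERSE: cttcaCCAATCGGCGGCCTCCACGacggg
HSP90B1 ERSE, sense: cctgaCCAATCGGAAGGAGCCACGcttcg
HSP90B1 ERSE, antisense: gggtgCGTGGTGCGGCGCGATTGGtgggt
CALR ERSE, antisense: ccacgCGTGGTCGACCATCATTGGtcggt
CANX ERSE: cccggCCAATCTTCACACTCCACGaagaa
PDIA6 ERSE: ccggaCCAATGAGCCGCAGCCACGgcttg
XBP1 ERSE: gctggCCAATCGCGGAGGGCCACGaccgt
HERPUD1 ERSE-II: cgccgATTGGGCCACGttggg

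The 9 bases between the half-sites differed in every copy. The match began 66 bases before the start of HSPA5, 52 bases before that of XBP1 and 225 bases before that of CALR, and the CANX copy fell in 3 of that gene's 4 windows. DNAJB9 and PDIA4 held neither motif in these windows, though all 9 genes held a CCAAT box, which 39.7% of all genes did. The 250 bases before the start are given for XBP1 (chr22:28800570-28800819, minus strand), the member with the largest fall, for CALR (chr19:12938359-12938608, plus), which rose, and for DNAJB9 (chr7:108569624-108569873, plus), which fell without an ERSE match in its window. The capitals mark the ERSE, and a match of these letters is a description of the sequence and not a site shown to be bound.
XBP1: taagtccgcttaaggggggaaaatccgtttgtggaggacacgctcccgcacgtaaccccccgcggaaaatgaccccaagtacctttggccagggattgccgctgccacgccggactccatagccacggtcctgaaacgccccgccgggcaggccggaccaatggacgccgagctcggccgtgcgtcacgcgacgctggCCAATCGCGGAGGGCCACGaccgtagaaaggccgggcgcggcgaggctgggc
CALR: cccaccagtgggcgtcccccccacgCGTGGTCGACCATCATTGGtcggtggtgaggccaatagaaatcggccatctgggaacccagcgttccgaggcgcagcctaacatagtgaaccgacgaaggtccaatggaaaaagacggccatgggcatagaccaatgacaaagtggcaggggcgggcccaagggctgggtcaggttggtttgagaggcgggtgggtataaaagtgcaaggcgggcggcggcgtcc
DNAJB9: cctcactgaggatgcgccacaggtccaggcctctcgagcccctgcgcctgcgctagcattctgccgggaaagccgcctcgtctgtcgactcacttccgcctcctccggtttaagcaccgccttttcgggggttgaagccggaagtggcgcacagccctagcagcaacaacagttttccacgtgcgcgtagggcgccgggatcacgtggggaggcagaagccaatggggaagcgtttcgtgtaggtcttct

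The values are log2 signals after robust multi-array averaging (RMA), and each gene is read by its probe set of highest mean over the 6 arrays, leaving aside those of the _x_at kind, which may bind related transcripts, unless it has no other. CALR and PDIA6 have brighter probe sets of that kind. A gene was called when the limma fit over all 19775 genes gave a Benjamini-Hochberg adjusted p under 0.05 and a fold over 1.5. Array medians lay between 7.27 and 7.32. Pearson's r between arrays, across probe sets, was 0.9968 to 0.9979 within a group and 0.9701 to 0.9754 between groups. The 3′ minus 5′ signal of GAPDH, a sign of RNA integrity, was -0.17 to -0.14 in parental cells and -0.18 to -0.17 in DTPs, and that of ACTB was 0.14 to 0.19 against 0.03 to 0.08 (both p = 0.10, two-sided exact permutation test, the smallest value that 3 against 3 arrays allow). Whether this shift in ACTB has a part in the results was not tested. All 8 epithelial markers lay above the median of all probe sets in both groups, whereas 2 of 7 lung adenocarcinoma markers, NKX2-1 among them, lay below it. KRT7, an epithelial keratin, was called higher (1.96-fold) and FOXA1, a factor of lung epithelium, lower (1.54-fold).

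In DTPs, mRNA of XBP1, DNAJB9 and HERPUD1 fell and that of CALR rose. The remaining members fell by less than the fold minimum or did not pass the test. Of the 10 members, 3 were called lower and 1 higher, beside 6.13% of all genes called lower and 8.08% called higher. Since the members were chosen with earlier results of these data known, these shares are a description and not a test. With no fold minimum, 7 were lower and 1 higher at an adjusted p under 0.05 in limma, where 24.0% and 20.4% of all genes passed. The 3 arrays of a group lay wholly apart from the 3 of the other for all 10 members, 9 lower and 1 higher, as they did for 29.8% (lower) and 23.9% (higher) of all genes. The median difference, DTP minus parental, was -0.36 on the log2 scale over the members and -0.05 over all genes.

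**Figure D1:**
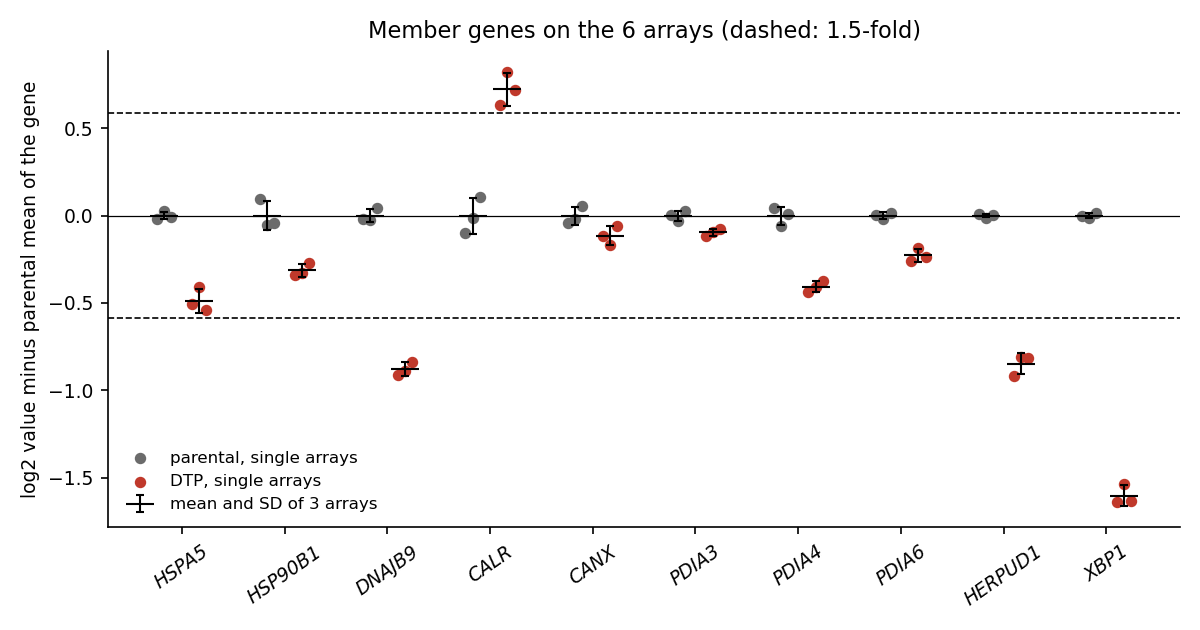
RMA log2 signal of each member in the 3 parental (grey) and 3 DTP (red) arrays, minus the gene's parental mean, with black bars for mean and SD and dashed lines at a 1.5-fold difference. The DTP arrays of XBP1, DNAJB9 and HERPUD1 lie below the lower line, those of CALR lie above the upper line, and those of CANX and PDIA3 lie just under 0.

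XBP1, the transcription factor of the IRE1 branch, changed most. Its log2 signal was 12.37, 12.36 and 12.38 in the parental arrays and 10.73, 10.84 and 10.74 in the DTP arrays. The groups stood far apart, and the spread within each was far smaller than the distance between them. The difference was -1.60 ± 0.07 (SE), a 3.04-fold fall (limma adjusted p = 8.8e-10). The probe sets lie at the level of the gene, so spliced and unspliced XBP1 mRNA could not be told apart. The other XBP1 probe set was dim, with both means below the array median, and differed by -0.29 (limma adjusted p = 0.040), so the mean of both probe sets gave a smaller fall of 0.95.

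DNAJB9, which hands unfolded clients to HSPA5 and restrains IRE1, followed. Its log2 signal was 11.71, 11.71 and 11.77 in parental cells and 10.82, 10.84 and 10.90 in DTPs. All 3 DTP arrays lay below all parental arrays, and the difference of -0.88 ± 0.06 (SE) was a 1.84-fold fall (limma adjusted p = 2.3e-07). Each of its 3 probe sets was called lower, by 0.95, 0.88 and 1.10 on the log2 scale.

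HERPUD1, which gathers the degradation complex around the ligase HRD1, was also called lower. Its log2 signal was 12.28, 12.26 and 12.28 in the parental arrays and 11.36, 11.47 and 11.46 in the DTP arrays. The groups did not overlap, and the difference was -0.85 ± 0.07 (SE), a 1.80-fold fall (limma adjusted p = 3.6e-07). Its second probe set differed by -0.30 (limma adjusted p = 0.0086) and was not called, and with the mean of both, -0.58, the gene fell short of the fold minimum.

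HSPA5, whose release from the sensors accompanies their activation, fell by a smaller step. Its log2 signal was 14.28, 14.32 and 14.29 in parental cells and 13.79, 13.88 and 13.75 in DTPs. The arrays were apart and the difference of -0.49 ± 0.07 (SE) passed the test (limma adjusted p = 6e-05), but the 1.40-fold fall stayed under the fold minimum. The other probe set, 9.01, 8.94 and 9.04 against 8.50, 8.33 and 8.36, fell by 0.60 and was called, though its 1.51-fold fall was barely over the fold minimum.

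HSP90B1, a chaperone of integrins and Toll-like receptors, fell by 0.31 ± 0.07 (SE) on the log2 scale, 1.24-fold (limma adjusted p = 0.0026), without being called. Its log2 signal was 10.98, 10.83 and 10.84 in parental cells and 10.54, 10.55 and 10.62 in DTPs. Both of its probe sets are of the _x_at kind, and the other, whose arrays overlapped between groups, differed by -0.15 (limma adjusted p = 0.61). A further 2 probe sets list HSP90B1 together with another gene and were left out.

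The paired lectins of the glycoprotein folding cycle differed in what they did. CALR, the soluble lectin, had a log2 signal of 9.82, 9.90 and 10.02 in the parental arrays and 10.55, 10.74 and 10.63 in the DTP arrays. Every DTP array lay above every parental array, and the difference of 0.72 ± 0.08 (SE) was a 1.65-fold rise (limma adjusted p = 7.2e-06). Its other probe sets were higher by 0.39 (limma adjusted p = 0.0064) and 0.52 (limma adjusted p = 0.0018) and were not called. Read by the brightest probe set, 0.39, or by the mean of the 3, 0.55, CALR therefore passed the test without reaching the fold minimum.

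CANX, the membrane-bound lectin, had a log2 signal of 12.99, 13.01 and 13.09 in parental cells and 12.91, 12.86 and 12.97 in DTPs. The nearest arrays of the groups were almost level, and the difference of -0.11 ± 0.07 (SE) did not pass the test (limma adjusted p = 0.19). Of its 5 probe sets, 1 passed without being called, at -0.21 (limma adjusted p = 0.032).

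Among the disulfide isomerases, PDIA4 and PDIA6 fell and PDIA3 did not pass the test. The log2 signal of PDIA4 was 12.21, 12.11 and 12.18 in parental cells and 11.73, 11.76 and 11.79 in DTPs. Both of its probe sets gave -0.41, with an SE of 0.07 for the brighter (limma adjusted p = 0.00023). PDIA6, which acts together with HSPA5, went from 12.81, 12.78 and 12.82 to 12.55, 12.62 and 12.57. This was a fall of 0.23 ± 0.06 (SE), or 1.17-fold (limma adjusted p = 0.012), and its 4 probe sets lay between -0.26 and -0.17. PDIA3, which serves the glycoproteins held by CALR and CANX, measured 12.40, 12.36 and 12.42 against 12.27, 12.30 and 12.32. Its difference was -0.10 ± 0.06 (SE; limma adjusted p = 0.25), and its dimmer probe sets differed the other way, by 0.08 and 0.13.

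Over the 28 probe sets, 6 were called lower and 1 higher, beside 4.93% and 7.56% of all probe sets. At the adjusted p alone 16 were lower, 3 were higher and 9 did not pass. All 3 that were higher belonged to CALR, and 23 of the 28 differences were negative. The matching shares of all probe sets were not counted. Of all genes, 24.0% were lower and 20.4% higher at the adjusted p alone. Probe sets of a gene share its RNA and are not replicates.

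**Figure D2:**
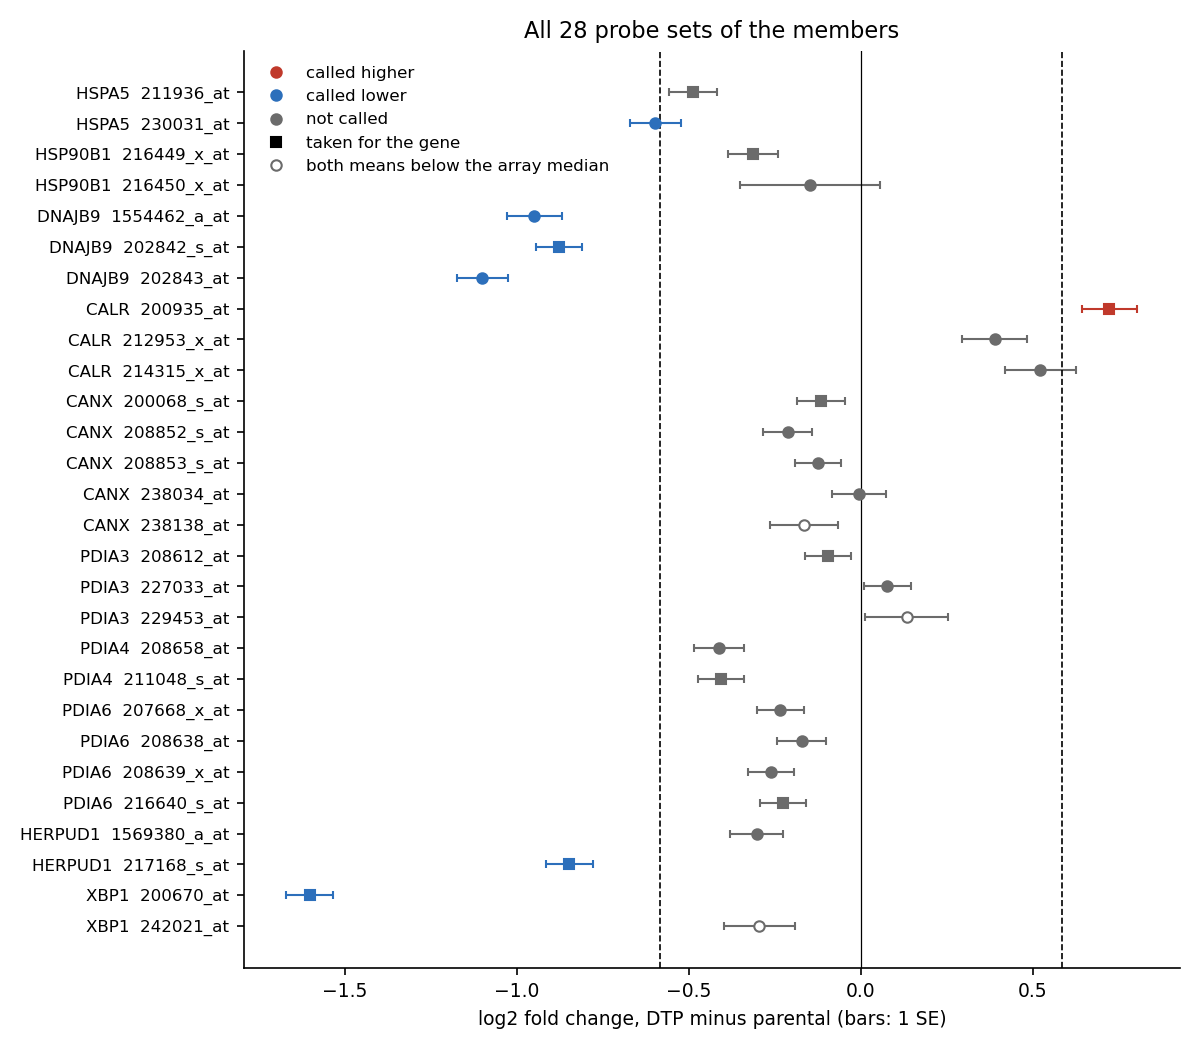
Log2 difference, DTP minus parental, with 1 SE for each of the 28 member probe sets, in red where called higher, blue where called lower and grey where not called. Squares mark the probe set read for the gene, open symbols those with both means below the array median, and dashed lines a 1.5-fold difference; the 3 DNAJB9 probe sets lie at -0.88 to -1.10, while those of XBP1 lie at -1.60 and -0.29.

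The log2 difference of a member depended on how the arrays were scaled. Centring the arrays on 29 genes of cytosolic ribosomal proteins or on spiked-in hybridization controls raised all differences by 0.13 and turned CANX (0.02 in both) and PDIA3 (0.04 in both) to the other sign. PDIA6 no longer passed the test under either, nor did PDIA4 and HSP90B1 with the spike-ins (limma adjusted p = 0.63, 0.068 and 0.28 with the spike-ins). PDIA4 differed by -0.27 and HSP90B1 by -0.18 under either centring. Their SE was 0.06 and 0.07 after ribosomal centring, and a larger 0.12 for each after spike-in centring. XBP1, DNAJB9, HERPUD1 and CALR kept their calls under both centrings. Neither reference was shown to be level between the groups. The spike-in mean was 11.35 to 11.53 in parental and 11.16 to 11.38 in DTP arrays. Of the 29 ribosomal protein genes, 8 were lower and 0 higher at a limma adjusted p under 0.05, beside 24.0% and 20.4% of all genes. Of the called genes of the whole table, 56.9% were higher as deposited, 72.7% after ribosomal and 72.5% after spike-in centring.

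**Figure D3:**
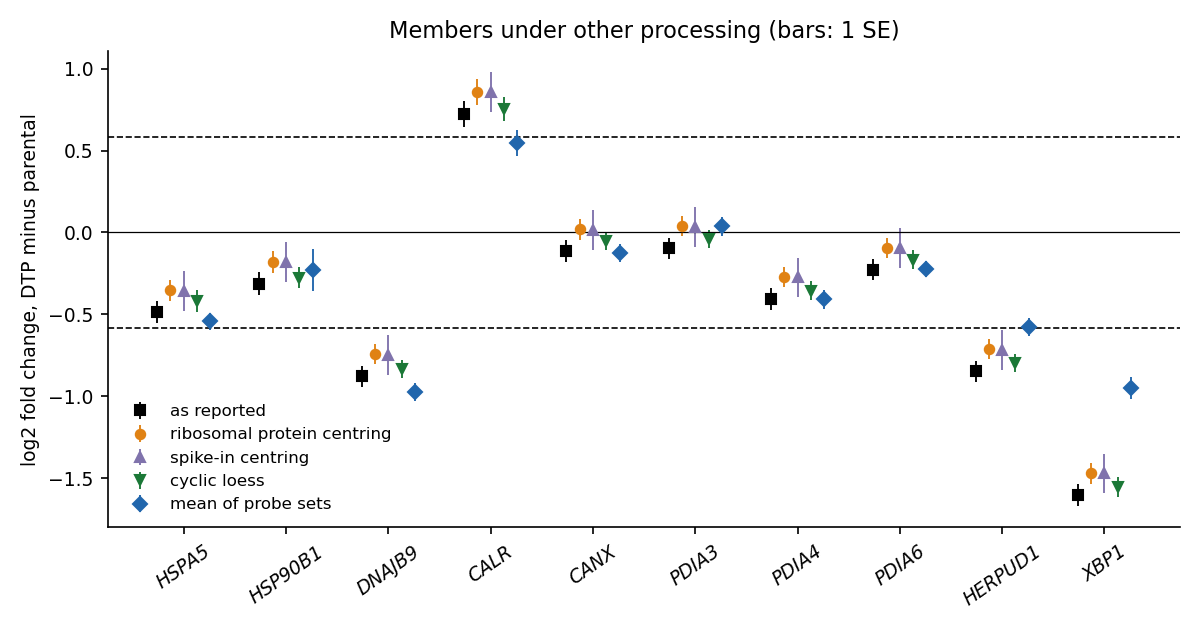
Log2 difference, DTP minus parental, with 1 SE for each member as reported, after ribosomal protein centring, spike-in centring or cyclic loess, and with the mean of a gene's probe sets. XBP1 stays below the lower dashed line (1.5-fold) in all 5, CALR stays above 0 and drops to 0.55 with the mean of probe sets, and CANX and PDIA3 fall on both sides of 0.

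The sensors that act before these genes were read from a list of 15 sensors and regulators, of which 14 were measured. ERN1, the IRE1 kinase and nuclease that splices XBP1, had a log2 signal of 10.72, 10.73 and 10.75 in parental cells and 8.56, 8.75 and 8.70 in DTPs. The groups were wide apart, and the difference of -2.07 ± 0.07 (SE) was a 4.19-fold fall (limma adjusted p = 2e-10). ATF6 (-0.05, limma adjusted p = 0.58) and EIF2AK3 (0.01, limma adjusted p = 0.88), the other two sensors, were named for their role after their values were seen, and neither passed the test. CREB3L2, an ATF6-like membrane transcription factor, was 1.65-fold lower, and WFS1, an ER membrane protein that restrains ATF6, was 1.85-fold higher. The other 11 were not called. In the list 14.3% were called lower and 7.14% higher, beside 6.13% and 8.08% of all genes, and its median difference was -0.05.

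Other folding machinery did not share a direction. Of 24 other ER folding factors measured, 1 was called higher (4.17%), 1 lower (4.17%) and 22 not, beside 8.08% and 6.13% of all genes. At the adjusted p alone 6 were higher and 7 lower, beside 20.4% and 24.0% of all genes. The median difference was -0.05. PPIC, a prolyl isomerase, rose 2.36-fold (limma adjusted p = 8.4e-08), and ERP29, a thioredoxin-fold protein of the ER lumen, fell 1.65-fold (limma adjusted p = 5.4e-06). Of 10 genes listed for the glycoprotein folding cycle, cargo receptors among them, only MCFD2 was called by limma, with a 1.67-fold fall. MCFD2 is a partner of the cargo receptor LMAN1 and not part of the cycle itself. The median of the list was -0.06. Of 34 genes of the translocon and early secretory pathway, 4 were called higher and 1 lower at a median of -0.14. These were 11.8% and 2.94% of the list, beside 8.08% and 6.13% of all genes. The 4 were KDELR3, which returns chaperones to the ER (3.21-fold), TRAM1 of the translocon (2.02-fold), and the coat proteins SEC31A (log2 difference 0.66) and SEC24D (0.59), and the lower was SEC63 (1.53-fold), a translocon J-domain protein. SEC63 lost its call without the first DTP array. SEC24D, at 1.503-fold, was barely over the fold minimum. Only 3 genes were called higher without the third parental, first DTP or second DTP array.

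Degradation, the process HERPUD1 belongs to, gave no calls under limma among 21 genes measured, at a median difference of 0.08, and none under the methods' t-test. At the adjusted p without a fold minimum, 5 were lower and 8 higher, beside 24.0% and 20.4% of all genes. The same numbers passed an unadjusted p under 0.05, for which the share of all genes was not counted. EDEM3, which trims mannose from misfolded glycoproteins, was higher by 0.51 (limma adjusted p = 4.4e-05), and SELENOS, which links the channel to the ATPase VCP, was lower by 0.57 (limma adjusted p = 6.9e-05). A gene of this list was called lower without the first parental array and without the third DTP array, 1 in each case.

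The ATF4 and CHOP arm, which lies downstream of PERK and also of amino acid shortage, stood at a median difference of -1.62. Of its 18 genes, 16 were called lower (88.9%), 1 higher (5.56%) and 1 not called, beside 6.13% and 8.08% of all genes. The falls were 9.04-fold for CTH and 6.63-fold for ASNS, enzymes of cysteine and asparagine synthesis, 7.90-fold for SESN2, a regulator of mTORC1, and 7.15-fold for TRIB3, a pseudokinase that binds ATF4. The exceptions, singled out after their values were seen, were NUPR1, a stress-induced nuclear protein, which was higher by 1.12, and VLDLR, a lipoprotein receptor, at 0.31. This list, like the members, was chosen with earlier results of these data known. Whether its falls bear on those of the members was not tested.

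Heat shock proteins, their co-chaperones and the factor HSF1, called HSP relatives here, were listed as working outside the ER, although HSPA13 is itself found at the ER. Not all of them belong to the HSP70 or HSP90 family. Of 14 measured, 3 were called higher (21.4%), 2 lower (14.3%) and 9 not, beside 8.08% and 6.13% of all genes. The median was -0.01. HSPA13 fell 2.91-fold and HSPA9, the mitochondrial HSP70, 2.05-fold. DNAJA1 and HSPH1, cytosolic co-chaperones of HSP70, rose 2.05-fold and 1.66-fold. The other gene called higher was HSPE1 (1.64-fold), which is of neither family. HSP90AA1, the inducible cytosolic HSP90, was named after its value was seen and differed by 0.27 (limma adjusted p = 0.0042) without being called.

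**Figure D4:**
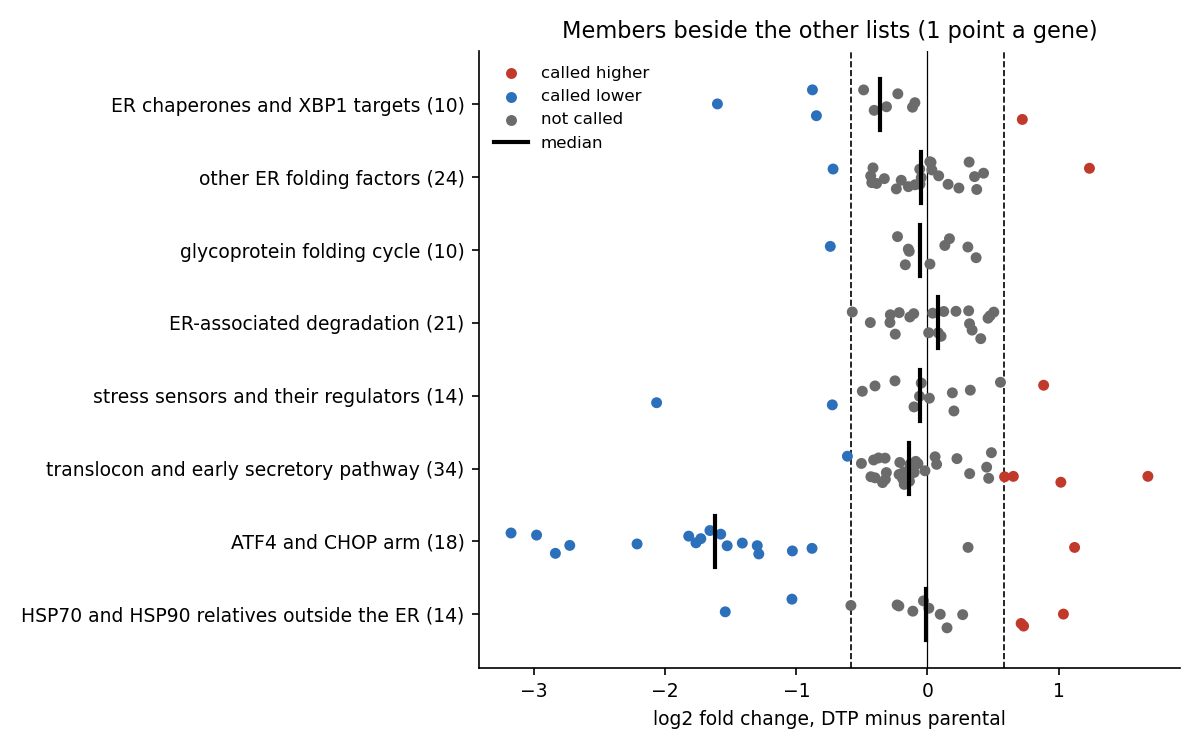
Log2 difference, DTP minus parental, of each measured gene in the members and the 7 other lists, in red where called higher, blue where called lower and grey where not called, with the list median as a black bar and dashed lines at 1.5-fold. The ATF4 and CHOP arm lies at a median of -1.62 and the members at -0.36, while the medians of the other 6 lists lie between -0.14 and 0.08.

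Genes outside the member list that hold an ERSE were read for comparison. Of 25 genes with an ERSE in a window, 18 were measured, and 12 of these were not members. Their differences were negative for 7 and positive for 5, with a median of -0.05, and that of measured genes without the motif was also -0.05. ERO1B, NLRP4 and ZNF17 among the 12 were dim, with both means below the array median, and whether the motif goes with a direction was not tested. EIF2A, a translation initiation factor, was called lower (1.78-fold), and at the adjusted p alone SERP1, a translocon-associated protein, and FICD, which AMPylates HSPA5, were lower by 0.31 and 0.22. ALG12, a mannosyltransferase (0.18), and TRIM5, an antiviral factor (0.37), were higher. These 5 were chosen after their values were seen, the windows of EIF2A and SERP1 overlap on opposite strands, and so do those of ALG12 and CRELD2. The ATF4-type element TGATG, 1 base, AA was matched in HERPUD1 alone among the members and in 4.46% of all genes, and the XBP1 element, TGACG followed by TGG, in none of them and 0.927% of all genes.

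**Figure D5:**
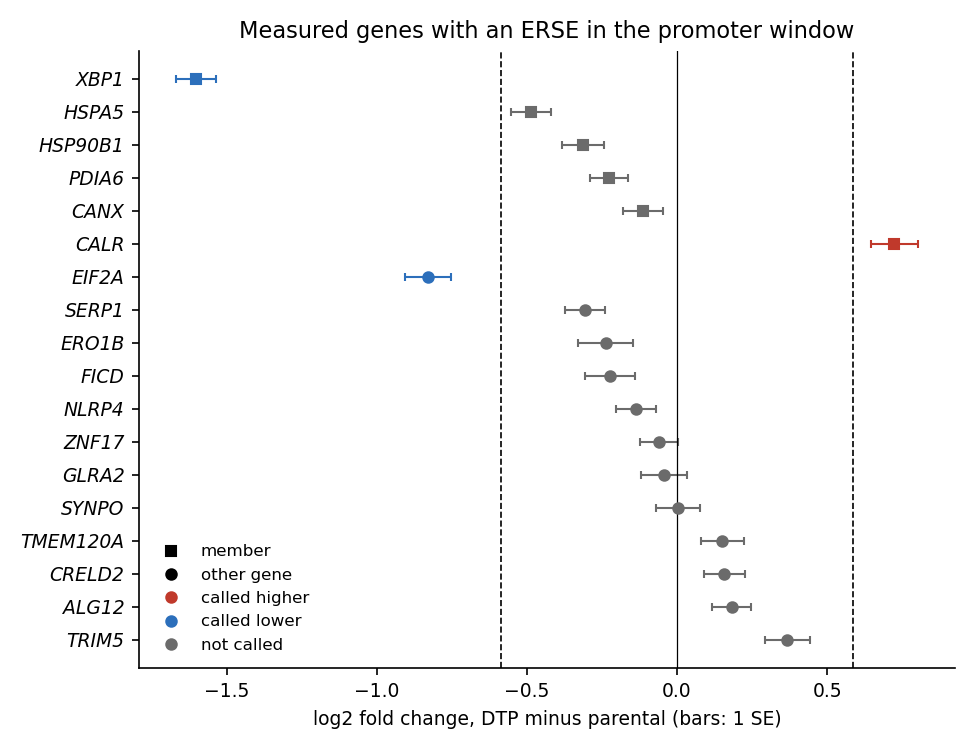
Log2 difference, DTP minus parental, with 1 SE for the 18 measured genes that hold an ERSE in a promoter window, with squares for the 6 members, circles for the 12 others, colour for the call and dashed lines at 1.5-fold. Members run from -1.60 (XBP1) to 0.72 (CALR), and 10 of the 12 others lie between -0.31 and 0.18.

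Genes with the most similar values to HSPA5 and XBP1 were sought among 12700 genes, by the root mean square distance over the 6 arrays after each gene's parental mean was subtracted. Closest to HSPA5 were SIGIRR, a receptor that dampens interleukin-1 signalling (0.0267), DLK2, a membrane protein (0.0287), and KRT10, a keratin (0.0345). Closest to XBP1 were PER2 of the circadian clock (0.031), UBALD2 (0.050) and ATF3, a stress-induced transcription factor (0.0615). With 2 groups of tight arrays this distance mostly ranks genes by the size of their difference.

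Markers of cells with a large secretory load or of other tissues were read beside these values, since XBP1 and HSPA5 are high in such cells. Of 8 plasma cell and secretory cell markers, 4 lay below the array median in both groups, and their mean log2 signal was 6.92 to 7.02 in parental arrays and 6.77 to 6.93 in DTP arrays. POU2AF1, a B cell coactivator at the dim end, was called lower and the other 7 were not. At the adjusted p alone 2 of the 8 were lower and 1 higher, beside 24.0% and 20.4% of all genes. The higher was SDC1, the brightest of them, at 0.53 (limma adjusted p = 3.3e-05). Fibroblast markers lay below the median for 5 of 8 with means of 6.78 to 6.87 against 7.07 to 7.18, and COL1A1, a collagen chain, rose 6.36-fold. The other 7 were not called and lay between -0.26 (COL1A2) and 0.13 (COL3A1), and the median difference of the list was -0.03. Blood cell markers lay below it for 3 of 5, with means of 6.76 to 6.82 against 6.68 to 6.79, and none was called by limma (1 lower and 1 higher at an unadjusted p under 0.05). Endothelial markers lay below it for 3 of 8, with means of 7.47 to 7.50 against 7.24 to 7.32, and PECAM1, an adhesion molecule, fell 1.61-fold. The part of these shifts in the members' values was not tested. All samples were cultures of the PC-9 line. Within it, fewer cells of a subpopulation and less RNA per cell cannot be told apart in these bulk samples. Neither can a change of each cell and the loss of those that died.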

How the data were processed

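Expression was measured on Affymetrix U133 Plus 2.0 arrays in 3 parental and 3 DTP samples, grouped by the labels. The deposited table holds log2 values that the authors made by RMA with affy (versions and genome build not given in the sources used here), which includes quantile normalization and gives no detection call. Such values cannot show whether a cell held more or less mRNA in all. The 62 control probe sets were left out. Gene names came from GEO's platform annotation, which names 1 gene for 41091 probe sets, several for 1801 and none for 11721. A gene was read by its probe set of highest mean over the 6 arrays, an _x_at probe set only where it had no other.

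Groups were compared with limma 3.58.1 (lmFit and eBayes, two-sided) in R 4.3.3 over all genes and, separately, over all probe sets, and p-values were adjusted by Benjamini-Hochberg over each table. The thresholds were those of the study's methods: adjusted p below 0.05, fold above 1.5. The fit was tested on simulated data. Promoters were searched on both strands for exact motifs. Members and lists were chosen with earlier results of these data known. Named from each list were up to 4 called genes with the largest difference, or, with none called, 2 with the smallest p. Alternatives covered scaling, probe set choice, test, thresholds, a replicate block and leaving out each array. Listed genes without a probe set of their own (such as SYVN1 and HSPA8) were not analysed here. The number of arrays limits the precision.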

Additional observations from a re-analysis of the deposited data

How the results depend on the processing

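Under 21 alternatives XBP1, DNAJB9, HERPUD1 and HSPA5 stayed lower and CALR higher, and no called member gene lost its call when 1 array was left out. CANX turned to 0.0191 under ribosomal and 0.0174 under spike-in centring, and PDIA3 to 0.0375 and 0.0358, to 0.0383 with the mean of probe sets and to 0.13 with the probe set of highest variance. The cause of each change was not tested unless the setting's own construction gives it. No fold minimum gave 7 member genes lower and 16 lower and 3 higher member probe sets. It gave 7 lower and 6 higher other ER folding factors, 2 and 2 of the glycoprotein cycle, 5 and 8 of degradation, 5 and 4 sensors, 13 and 9 of the translocon list, 2 higher of the ATF4 and CHOP arm, 4 lower HSP relatives, and 4754 lower and 4043 higher of all genes. A fold over 2 left 1 member gene and 2 member probe sets lower and 0 of either higher. It left 0 lower other ER folding factors and glycoprotein cycle genes, 1 lower and 0 higher sensors, 0 lower and 2 higher translocon genes, 1 higher HSP relative, and 431 lower and 679 higher of all genes. With the mean of probe sets, 0 member genes were higher, 0 glycoprotein cycle and 0 translocon genes lower and 1 sensor lower, and with the brightest probe set 0 member genes were higher. With the probe set of highest variance, HSPA5 (-0.60) was called, 2 other folding factors, 1 degradation gene and 5 HSP relatives were higher, and 2 glycoprotein cycle and 3 translocon genes lower. Each centring gave 2 higher and 5 lower member probe sets, 3 higher degradation genes, 2 higher sensors and 0 lower translocon genes. Cyclic loess gave 0 lower translocon genes and array weights 1 lower degradation gene.

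Leaving out 1 array gave 1 to 2 higher member probe sets (2 without the third DTP array), 0 to 1 lower degradation genes (1 without the third DTP array or the first parental array) and 0 to 1 lower translocon genes (0 without the first DTP array). Parental and DTP arrays shared numbers, and the deviations of same-numbered arrays correlated at -0.12, 0.02 and -0.06. With 3 arrays a group this cannot show whether same-numbered arrays were paired. The replicate block left 3 member genes lower and 1 higher, 6 member probe sets lower and 1 higher, with HSPA5 at -0.49 (limma adjusted p = 0.00021) and XBP1 at -1.60 (limma adjusted p = 1.8e-08).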
